A study of Homo sapiens with 54 samples.

Results

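The 35 genes described here encode the enzymes and transporters that carry glucose to lactate, together with established targets of the hypoxia response. They were listed by name for their function, with earlier results of these data known, and were taken from a count table of 27978 genes. All 35 were present and all 35 had enough reads to be tested in every comparison. They were grouped by role into 4 transporters, 10 genes of the hexose phosphate steps, 7 genes from triose phosphate to pyruvate, 3 genes of pyruvate fate, 2 carbonic anhydrases, 4 prolyl hydroxylases and 5 secreted or stress-related targets.

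RNA-seq counts came from 54 libraries of MDA-MB-231, an established human breast cancer line that lacks hormone receptors, in 18 groups of 3 replicates. Cells were untreated or received Compound Kushen Injection (CKI), an extract of Sophora flavescens and Heterosmilax chinensis, at 2 mg/ml, or a mixture fractionated from CKI and reconstituted at the equivalent dose. In batch 1, at both 24 h and 48 h, the groups were untreated, CKI, OmtOspc (oxymatrine and oxysophocarpine only), MacOmtOspc (the same with macrozamin), N-OmtOspc (CKI without oxymatrine and oxysophocarpine) and N-MacOmtOspc (CKI also without macrozamin). In batch 2, at 48 h only, they were untreated, CKI and CKI without 1 component, namely macrozamin (N-Mac), N-methylcytisine (N-Nme), oxymatrine (N-Omt) or trifolirhizin (N-Tri). Every treated group was compared with the untreated cells of its own time and batch, so comparisons within a time and batch share their 3 untreated libraries. A reconstituted complete CKI was not analysed here, so the removal of a component and the fractionation itself cannot be told apart. The cells are 1 line, and where nothing in the labels ties replicates to separate cultures the p-values measure the spread between these libraries only.

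Glycolysis splits glucose into pyruvate, and in many tumour cells most of that pyruvate is reduced to lactate and exported even when oxygen is present. When oxygen is low, the prolyl hydroxylases encoded by the EGLN genes no longer mark the transcription factor subunit HIF1A for destruction; HIF1A then pairs with ARNT and binds a short core sequence in its target genes. Many glycolytic genes, glucose transporters, the carbonic anhydrase CA9 and the angiogenic factor VEGFA are such targets, and most are also under other controls.

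The core of the hypoxia response element is ACGTG or GCGTG, and the promoters of the 35 genes were searched for both, on either strand, within the 250 bases before the annotated start. RefSeq promoters (GRCh38.p14) matched 31 of the 35 genes, and SLC2A3, SLC16A1, VEGFA and NDRG1 had no entry in the table used. ACGTG or its reverse complement CACGT was present in 19 of the 31 (61.3%), against 21.7% of 27305 genes in the table and 18.5% of 35116 promoters. It was present in 12 of 17 matched genes that were higher with CKI in all 3 comparisons (70.6%) and in 7 of the 14 others (50.0%). The 35 genes were listed partly as established hypoxia targets, so an excess over all genes is no independent result. GCGTG or its reverse complement CACGC was present in 15 of the 31 (48.4%), against 36.2% of genes, and in 7 of the 17 (41.2%) and 8 of the 14 others (57.1%). The following 30-base windows, read 5′ to 3′ on the strand of the gene, show the match in capitals in genes that the results turn on; CACGTG holds the motif on both strands.
CA9 (chr9:35673898-35673927, plus strand): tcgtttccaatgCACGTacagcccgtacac
ALDOC (chr17:28576906-28576935, minus strand): ccccggaggagtCACGTagctctgcgacat
P4HA1 (chr10:73096935-73096964, minus strand): tgtgatcgagctCACGTagcgagggctgca
PDK1 (chr2:172556060-172556089, plus strand): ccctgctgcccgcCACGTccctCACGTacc
ENO2 (chr12:6914450-6914479, plus strand): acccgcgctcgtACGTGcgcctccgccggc
EGLN1 (chr1:231422288-231422317, minus strand): ccgcggggccgtggtgtACGTGcagagcgc
BNIP3 (chr10:131982039-131982068, minus strand): cgcacgcgccgCACGTGccacacgcacccc
ANKRD37 (chr4:185396686-185396715, plus strand): cagtgtttgtgtACGTGcggccgtggcggg
PFKFB3 (chr10:6202813-6202842, plus strand): accctcctcccCACGTGgaagggggctggg
GAPDH (chr12:6535172-6535201, plus strand): ctctgcggggtCACGTGtcgcagaggagcc
LDHA (chr11:18394478-18394507, plus strand): cgtgggttcccgCACGTccgccggcccccc
SLC16A3 (chr17:82228975-82229004, plus strand): cgtgcgcgggggACGTGccgcgccagcgac
The first 9 of these genes were higher with CKI in all 3 comparisons, while GAPDH, LDHA and SLC16A3 were not, and the matches describe letters in a window, not binding. The counts were made on hg19, and no coordinate was converted between the builds.

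Totals ran from 17673537 to 26138924 counts per library (median 22568666.5). Of 36 libraries of batch 1, 3 stood apart by moving toward the pattern of batch 2, measured as a slope along 540 genes that differed at least 2-fold between the untreated cells of the batches. These were CKI 24 h replicate 1 (0.657), N-MacOmtOspc 24 h replicate 2 (0.612) and OmtOspc 24 h replicate 2 (0.582), whereas the other 33 had slopes from -0.414 to 0.105. The labels of these 3 also lack the number that follows the treatment name in the other treated libraries, and what sets them apart was not tested. Counts that rest on these 3 libraries are given with and without them, and for single genes at 24 h the values without them are given for CKI and OmtOspc where a gene is described library by library. Of 6 genes typical of this mesenchymal-like line, VIM, CD44, AXL, CAV1, FOSL1 and MSN, the medians over libraries were 245 to 835 CPM (read counts scaled to a common library size), whereas the receptor genes ESR1 and PGR had medians of 0.0423 and 0 CPM. Of the epithelial and luminal genes, CDH1, GATA3, EPCAM and ERBB2 had medians of 1.35, 15.1, 15.6 and 63.0 CPM, and the keratin KRT8, at 550 CPM, went against the labelled type. Among markers of other cell types, PTPRC and ALB stayed at or below 0.613 and 0.163 CPM in every library, COL1A1 ranged from 8.88 to 64.2 CPM and PECAM1 from 0.0816 to 5.5 CPM; both of the latter were higher with CKI at 48 h in each batch, and their part in the results was not tested.

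CKI raised most of the hypoxia targets and the early steps of glycolysis, while genes from triose phosphate to pyruvate moved in both directions, with ENO2 higher and GAPDH and ENO1 lower in at least 2 of the 3 comparisons. At 24 h, 21 of the 35 genes were higher and 1 was lower than in untreated cells (edgeR quasi-likelihood test at an adjusted p under 0.05, with the Benjamini-Hochberg method applied across the whole table), so that 62.9% were called against 38.7% of 14245 genes tested. Without the CKI library that stood apart, 24 were higher and 1 was lower. The calls over all genes grew as well in that fit, to 7636 of 14410 tested, against 5512 of 14245 with the library. The log2 fold changes of genes shown library by library were then 1.57 for P4HA1, 0.90 for ADM, 2.11 for CA9, 1.91 for ALDOC, 0.94 for ENO2, 0.84 for PDK1, 0.92 for SLC2A3 and -0.07 for CA12, which alone changed sign. At 48 h in batch 1, 24 were higher and 6 lower, 85.7% against 62.5% of all genes. At 48 h in batch 2, 25 were higher and 5 lower, again 85.7%, against 68.4%. The median log2 fold change of the 35 was 0.79 (0.77 without the library that stood apart), 0.51 and 0.49 in the 3 comparisons, in that order, against 0.01, 0.00 and 0.00 for all genes tested. By direction, 60%, 68.6% and 71.4% of the 35 were higher, against 19.3%, 31.6% and 34.1% of all genes. These are values of bulk RNA, in which fewer expressing cells and less RNA per cell cannot be told apart.

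The 3 comparisons of CKI have separate treated and untreated libraries, and 20 of the 35 genes were higher in all 3, as were 15.3% of the 13926 genes tested in all 3. These were SLC2A3, HK1, HK2, GPI, PFKFB3, PFKFB4, ALDOA, ALDOC, ENO2, PDK1, CA9, EGLN1, EGLN3, P4HA1, P4HA2, VEGFA, ADM, NDRG1, BNIP3 and ANKRD37. PFKM, PFKP, PGK1 and CA12 were higher in 2 of the 3. LDHB was lower in all 3, and SLC16A3, GAPDH and ENO1 were lower in 2; 15.7% of genes were lower in all 3. The call of LDHB at 24 h held in 7 of 12 alternative settings, and those of PGK1 at 24 h and at 48 h in batch 1 held in 5 and 4 of 12. That of LDHA at 48 h in batch 1 held in 5 of 12, and that of TPI1 in batch 2 in 8 of 12. In batch 2 the calls of GAPDH and SLC16A3 held in 11 and 10 of 12, and both were lost with library sizes alone. The other 7 genes, SLC2A1, SLC16A1, PFKL, TPI1, PGAM1, PKM and LDHA, did not reach 2 calls in 1 direction.

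**Figure D1:**
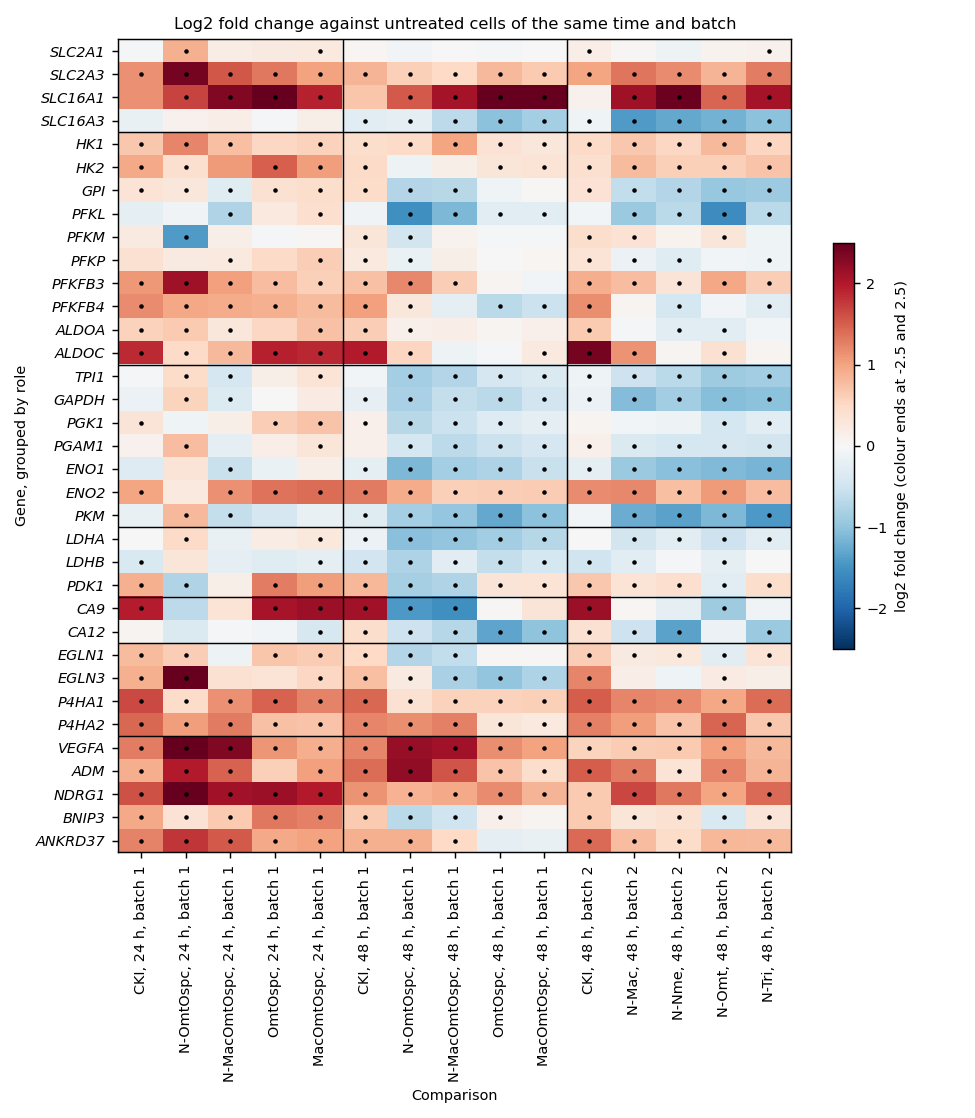
Log2 fold change of the 35 genes (vertical axis, grouped by role) in 15 comparisons with untreated cells of the same time and batch (horizontal axis); red is higher, blue is lower, and a black dot marks an adjusted p under 0.05. The CKI columns are red for most hypoxia targets, and in the mixture columns at 48 h the block from TPI1 to LDHA is mostly blue, except for ENO2.

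The 4 prolyl hydroxylases of the set were higher without exception. All 4 rose in each CKI comparison, with median log2 fold changes of 1.16, 0.99 and 1.25. P4HA1, the catalytic subunit of the enzyme that hydroxylates collagen prolines, stood at 63.3, 69.4 and 70.3 CPM in untreated cells at 24 h and at 235, 211 and 192 CPM with CKI. At 48 h in batch 1 its untreated values were 96.2, 93.2 and 90.8 CPM, and its CKI values were 261, 245 and 245 CPM. In batch 2 they were 138, 144 and 136 CPM against 388, 395 and 406 CPM. In none of the 3 comparisons did the groups overlap, and the log2 fold changes were 1.65 (SE 0.104), 1.43 (SE 0.0548) and 1.52 (SE 0.0394), with edgeR adjusted p of 6.36e-05, 2.4e-13 and 1.3e-11. Its paralogue P4HA2 rose by 1.44, 1.23 and 1.27 on the log2 scale. EGLN1, the main oxygen sensor that targets HIF1A, rose by 0.79, 0.51 and 0.61. EGLN3, a related hydroxylase that is itself a hypoxia target, rose by 0.88, 0.76 and 1.22.

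The 5 secreted and stress-related targets rose in all 3 comparisons of CKI as well, with median log2 fold changes of 1.25, 1.13 and 0.65. ADM, which encodes the vasodilator peptide adrenomedullin, was at 43.0, 38.1 and 36.9 CPM in untreated cells at 24 h and at 73.9, 69.9 and 77.6 CPM with CKI. The 48 h libraries of batch 1 had 34.4, 36.7 and 39.5 CPM without and 100, 95.8 and 91.0 CPM with CKI. In batch 2 it was at 38.0, 38.7 and 36.7 CPM without and 107, 106 and 106 CPM with CKI. The treated libraries lay above all untreated libraries each time, with log2 fold changes of 0.91 (SE 0.0934), 1.39 (SE 0.0656) and 1.51 (SE 0.044) and edgeR adjusted p of 0.000407, 3.81e-12 and 3.41e-11. VEGFA, the angiogenic growth factor, rose by 1.28, 1.22 and 0.56, and NDRG1, a stress-responsive gene of differentiation, rose by 1.59, 1.13 and 0.65. BNIP3, which acts in mitophagy, rose by 0.95, 0.66 and 0.65; it has 39 annotated pseudogenes, so its counts are uncertain where reads could be shared. ANKRD37, an ankyrin repeat gene, rose by 1.25, 0.89 and 1.42.

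The 2 carbonic anhydrases, which hydrate carbon dioxide at the cell surface, were not called at the same times. CA9 was low in untreated cells, at 3.92, 3.09 and 1.98 CPM at 24 h, and stood at 9.24, 11.9 and 14.0 CPM with CKI. By 48 h in batch 1 it was at 4.32, 6.99 and 6.67 CPM without and 27.6, 25.0 and 23.1 CPM with CKI. In batch 2 the values were 7.18, 5.02 and 7.25 CPM against 28.3, 28.4 and 28.3 CPM. Every CKI library exceeded every untreated library of its time and batch, and the log2 fold changes of 1.97, 2.09 and 2.14 had SE of 0.256, 0.127 and 0.105 (edgeR adjusted p 0.00108, 1.13e-10 and 2.37e-09). CA12 had 36.4, 37.9 and 42.0 CPM in untreated cells at 24 h and 46.9, 36.9 and 37.5 CPM with CKI, where the groups overlapped and no change was called (log2 fold change 0.06, edgeR adjusted p 0.729). At 48 h in batch 1 CA12 was at 49.3, 46.0 and 48.8 CPM without and 61.1, 65.4 and 66.2 CPM with CKI. In batch 2 the untreated libraries were spread over 74.5, 90.2 and 56.1 CPM, below the 96.2, 93.5 and 95.3 CPM of the CKI libraries. Its log2 fold changes at 48 h were 0.43 (SE 0.0614) and 0.38 (SE 0.119), with edgeR adjusted p of 7.79e-06 and 0.0118.

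**Figure D2:**
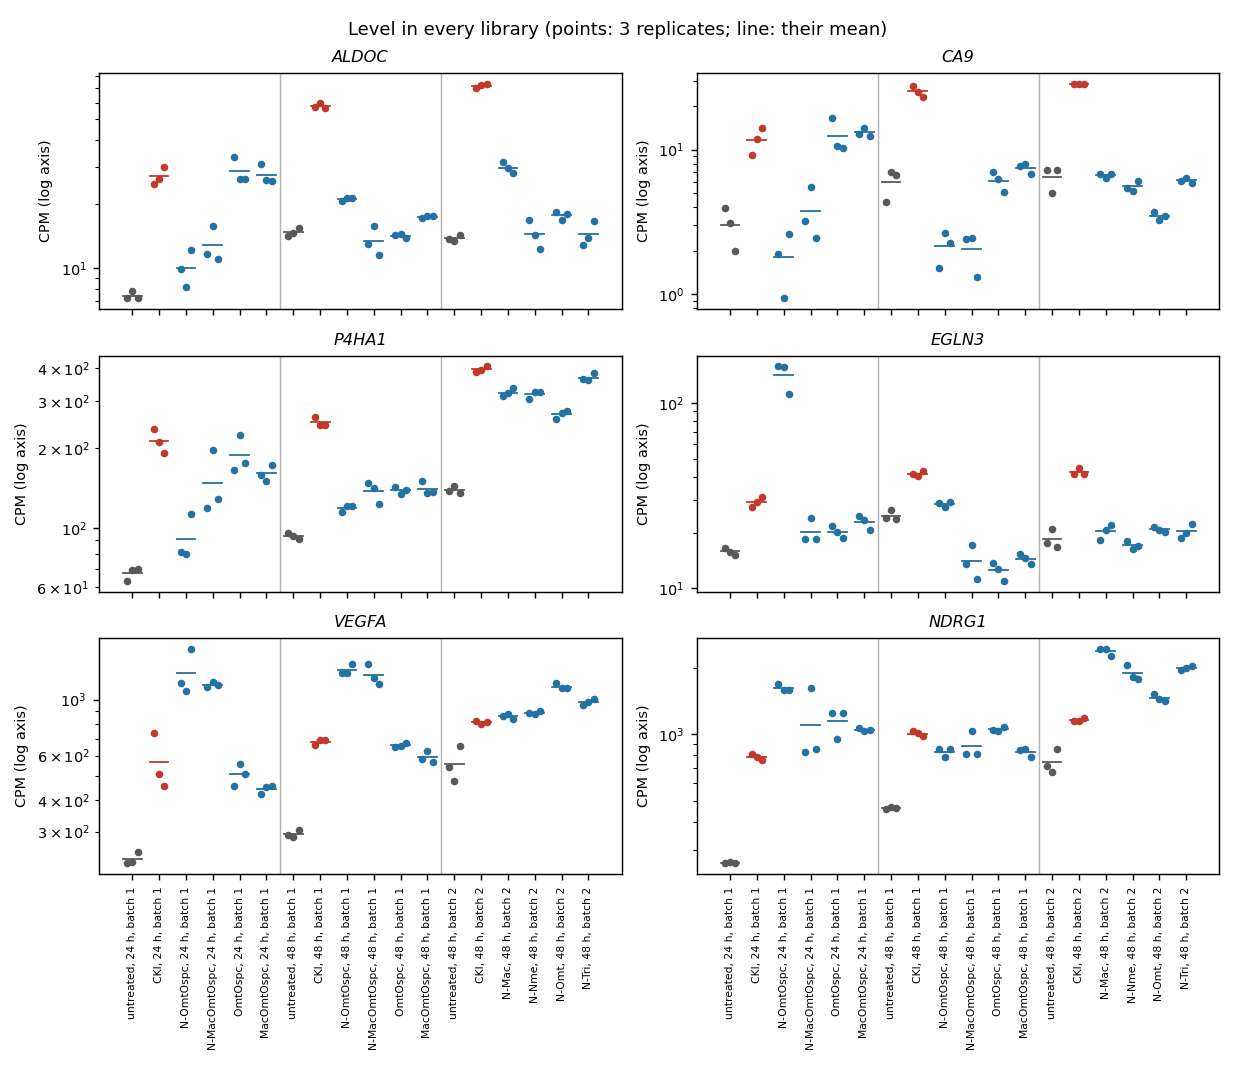
Level in CPM (log axis) of 6 genes in all 54 libraries, with 3 points and their mean per group, grey for untreated, red for CKI and blue for the mixtures. ALDOC and CA9 are high with CKI at both times and with OmtOspc and MacOmtOspc at 24 h only, whereas EGLN3 peaks in N-OmtOspc at 24 h, at 111 to 157 CPM.

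Of the 10 genes of the hexose phosphate steps, 7 rose at 24 h and 9 rose at 48 h in each batch, and none fell. ALDOC, the aldolase isoform best known from brain, had the largest mean change of this group. In untreated cells it was at 7.22, 7.76 and 7.2 CPM at 24 h, and with CKI at 24.8, 26.3 and 29.9 CPM. After 48 h in batch 1 the values were 14.2, 14.6 and 15.4 CPM without and 57.4, 59.4 and 56.8 CPM with CKI. In batch 2 they were 13.7, 13.4 and 14.3 CPM against 70.0, 72.8 and 73.4 CPM. The groups were far apart and the replicates close, with log2 fold changes of 1.86 (SE 0.114), 1.98 (SE 0.0687) and 2.40 (SE 0.0536) and edgeR adjusted p of 6.36e-05, 6.01e-14 and 4.01e-12.

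The regulatory enzymes PFKFB3 and PFKFB4, which set the level of an allosteric activator of phosphofructokinase, rose by 1.07, 0.74 and 0.91 and by 1.19, 1.02 and 1.16 on the log2 scale. The hexokinases, which trap glucose in the cell, rose less, HK1 by 0.68, 0.44 and 0.49 and HK2 by 0.94, 0.47 and 0.41. ALDOA, the main muscle-type aldolase, rose by 0.57, 0.62 and 0.65, and the isomerase GPI by 0.34, 0.45 and 0.37. Of the phosphofructokinase subunits, PFKM had changes of 0.22 (not called), 0.30 and 0.43 and PFKP of 0.38 (not called), 0.25 and 0.34. The liver-type subunit PFKL was not called in any CKI comparison, with values of -0.22, -0.08 and -0.06.

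From triose phosphate to pyruvate the isoform ENO2 parted from the other genes. ENO2, the enolase best known from neurons, was at 82.1, 78.9 and 82.5 CPM in untreated cells at 24 h and at 172, 155 and 158 CPM with CKI. The 48 h libraries of batch 1 were at 94.0, 96.5 and 96.1 CPM without and 231, 234 and 236 CPM with CKI. In batch 2 it was at 112, 114 and 121 CPM against 257, 263 and 254 CPM. No library of 1 group reached the other, and the log2 fold changes were 0.99 (SE 0.0817), 1.30 (SE 0.053) and 1.17 (SE 0.0397), with edgeR adjusted p of 0.000166, 5.51e-13 and 1.21e-10. The ubiquitous enolase ENO1 had -0.32 (not called), -0.25 and -0.25. GAPDH, the oxidising step, had -0.15 (not called), -0.21 and -0.14, and has 62 annotated pseudogenes, so that its counts are uncertain. PGK1, the first ATP-yielding step, had 0.33, 0.13 and 0.06, of which the last was not called. The mutase PGAM1 had 0.10 and 0.12 in batch 1, neither of them called, and 0.12 in batch 2, where it was called. TPI1, the triose phosphate isomerase, had -0.04, -0.07 and -0.10, of which only the last was called. The pyruvate kinase PKM had -0.19, -0.31 and -0.08, of which only the middle value was called (edgeR adjusted p 0.000176). Other members with annotated pseudogenes, and thus with the same uncertainty, were PGAM1 (13), LDHA (6), PKM (5), TPI1 (4), ENO1 (4), SLC2A3 (3), LDHB (3) and ALDOA (2), and SLC16A1, HK2, PGK1, EGLN1 and EGLN3 had 1 each.

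The genes of pyruvate fate moved in both directions with CKI. PDK1, the kinase that shuts off mitochondrial pyruvate oxidation, was at 22.5, 23.4 and 26.4 CPM in untreated cells at 24 h and at 48.0, 43.6 and 43.2 CPM with CKI. At 48 h in batch 1 it was at 34.6, 29.7 and 28.7 CPM without and 52.9, 55.9 and 55.8 CPM with CKI. In batch 2 it was at 45.7, 42.7 and 44.2 CPM against 70.5, 68.8 and 69.9 CPM. CKI libraries were higher without overlap each time, with log2 fold changes of 0.90 (SE 0.104), 0.83 (SE 0.0722) and 0.67 (SE 0.0453) and edgeR adjusted p of 0.000647, 1.42e-08 and 3.97e-08. LDHB, the lactate dehydrogenase subunit of oxidative tissues, fell by 0.37, 0.48 and 0.49. LDHA, the subunit that favours lactate formation, had 0.02, -0.14 and -0.01, of which only the middle value was called.

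Among the 4 transporters, the neuronal-type glucose carrier SLC2A3 rose in every CKI comparison. It was at 49.6, 48.6 and 45.0 CPM in untreated cells at 24 h and at 137, 93.6 and 87.7 CPM with CKI, where the highest value belonged to the library that stood apart. After 48 h in batch 1 it was at 69.9, 73.3 and 69.7 CPM without and 131, 126 and 124 CPM with CKI. In batch 2 it was at 125, 115 and 138 CPM against 237, 253 and 244 CPM. The groups did not overlap, and the log2 fold changes were 1.15 (SE 0.173), 0.85 (SE 0.055) and 0.98 (SE 0.0558), with edgeR adjusted p of 0.0019, 2.71e-10 and 8.66e-09. SLC2A1, the most widespread glucose carrier and a textbook hypoxia target, had -0.04 and 0.04 in batch 1, neither of them called, and 0.16 in batch 2, where it was called. The lactate exporter SLC16A3 had -0.19 (not called), -0.27 and -0.12. SLC16A1, another lactate carrier, stayed below 3 CPM in all CKI and untreated libraries and was not called in any CKI comparison.

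At 24 h each mixture raised more of the 35 genes than it lowered. With N-OmtOspc at 24 h, 24 of the 35 genes were higher and 2 lower (74.3% called), where 33% of all genes were higher and 33.8% lower (66.8% called). This count depended on scaling, since library sizes without the TMM correction shifted the median of all genes by -0.32 on the log2 scale and gave 15 higher and 4 lower. With N-MacOmtOspc at 24 h, 16 were higher and 6 lower (62.9% called), where 23.8% of all genes were higher and 22.1% lower (45.9% called), and without its library that stood apart 19 were higher and 12 lower. The latter fit called 10086 of 14766 genes tested, against 6640 of 14464 with the library. The alkaloid pair alone, OmtOspc, raised 18 genes and lowered none (51.4% called), where 8.54% of all genes were higher and 7.92% lower (16.5% called). It raised 22 and lowered none without its library that stood apart, with changes of 2.16 for CA9, 1.21 for PDK1 and 1.35 for BNIP3. That fit called 2795 of 14338 genes tested. MacOmtOspc raised 28 and lowered 2 (85.7% called), where 18.1% of all genes were higher and 17.7% lower (35.8% called). The medians of the 35 were 0.48, 0.28, 0.60 and 0.64 in N-OmtOspc, N-MacOmtOspc, OmtOspc and MacOmtOspc.

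At 48 h the mixtures split the genes in both directions. N-OmtOspc gave 15 higher and 18 lower (94.3% called), where 40.1% of all genes were higher and 40.4% lower (80.4% called). N-MacOmtOspc gave 11 and 17 (80.0%), against 32.4% and 32.3% of all genes (64.7%). OmtOspc gave 12 and 13 (71.4%), against 34.1% and 33.7% (67.8%), and MacOmtOspc gave 12 and 13 (71.4%), against 30.5% and 30.1% (60.5%). In batch 2, N-Mac gave 17 higher and 12 lower (82.9% called), against 36.5% and 36% of all genes (72.6%). N-Nme gave 15 and 13 (80.0%), against 34.9% and 34.6% (69.5%). N-Omt gave 15 and 16 (88.6%), against 39.4% and 40.2% (79.6%), and N-Tri gave 16 and 13 (82.9%), against 37.1% and 37.2% (74.3%). Each share called exceeded that of all genes by less than the gap seen with CKI at 24 h. With OmtOspc it was close to that of all genes (71.4% against 67.8%). Comparisons within a batch share their untreated libraries, so the 8 are not independent results. The medians of the 35 lay between -0.22 and 0.16, against 0.51 and 0.49 with CKI.

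At 48 h TPI1, GAPDH, PGAM1, ENO1, PKM and LDHA were lower in the mixtures, ENO2 was higher, and PGK1 was lower except with N-Mac (-0.07) and N-Nme (-0.13), where it was not called. PKM, the pyruvate kinase that makes the last ATP of the pathway, was at 3440, 3730 and 3820 CPM in untreated cells of batch 1 and at 1560, 1510 and 1450 CPM with OmtOspc. In batch 2 it was at 2640, 2720 and 2530 CPM in untreated cells and at 971, 993 and 944 CPM with N-Tri. The treated libraries lay below all untreated ones, with log2 fold changes of -1.28 (SE 0.0508) and -1.45 (SE 0.0416) and edgeR adjusted p of 5.32e-14 and 3.07e-11, and the other 6 mixtures gave -0.85 to -1.34. With N-OmtOspc at 24 h, however, PKM was at 6660, 6460 and 5470 CPM against 3740, 3710 and 3440 CPM. There it was above all untreated libraries (log2 fold change 0.80, SE 0.132, edgeR adjusted p 0.000693), and still higher, by 0.50, with library sizes alone. In the same 24 h comparison GAPDH, TPI1 and LDHA were higher by 0.56, 0.46 and 0.48, and not called with library sizes alone, at 0.25, 0.15 and 0.18. At 48 h, GAPDH lay between -0.47 and -1.07 in the 8 mixture comparisons, ENO1 between -0.55 and -1.15, TPI1 between -0.37 and -0.89, PGAM1 between -0.35 and -0.66, and LDHA between -0.27 and -1.04. Each of those values was called, and 4 comparisons share each untreated group. LDHB fell by 0.22 to 0.77 in 6 of the 8 and was not called with N-Nme (-0.05) or N-Tri (0.01), and ENO2 rose by 0.59 to 1.21 in all 8.

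**Figure D3:**
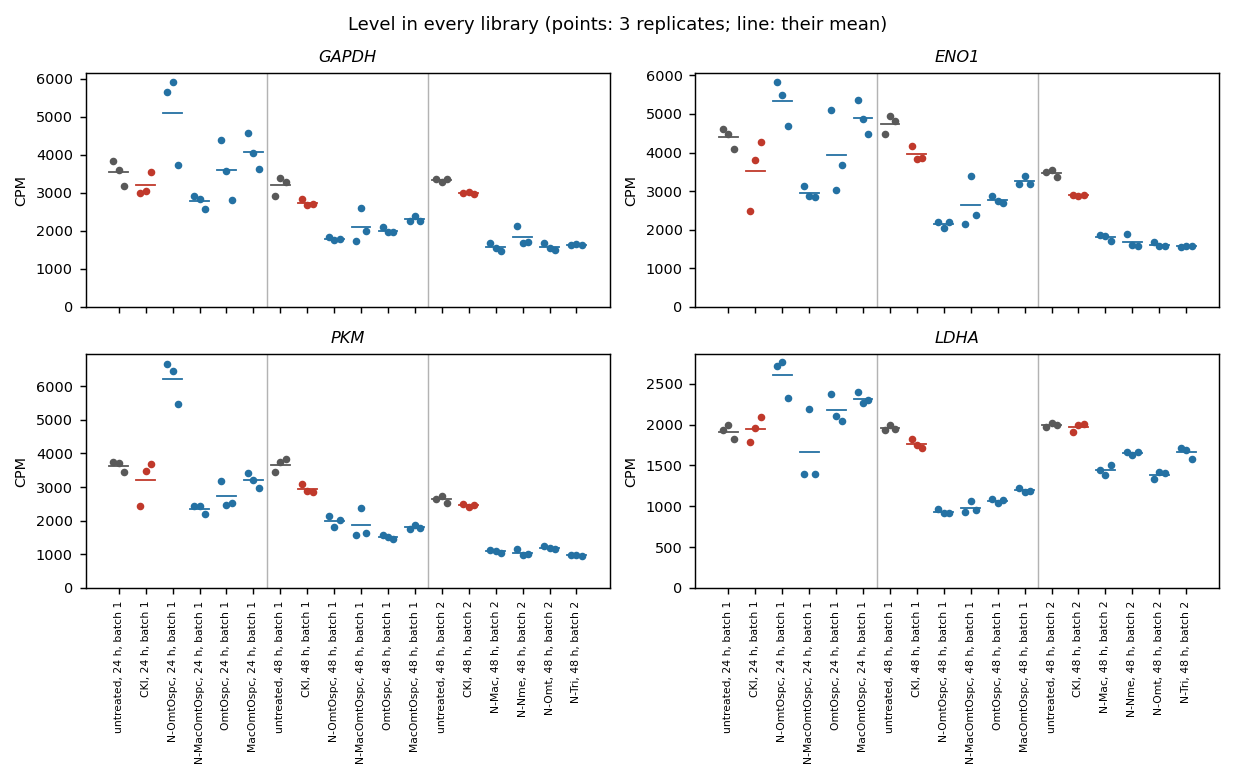
Level in CPM of GAPDH, ENO1, PKM and LDHA in all 54 libraries, with 3 points and their mean per group, grey for untreated, red for CKI and blue for the mixtures. At 48 h the values in the mixtures lie below those of untreated cells, and CKI libraries lie closer to the untreated ones than the mixtures do. N-OmtOspc at 24 h lies highest for PKM, at 5470 to 6660 CPM.

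PFKL and SLC16A3 fell at 48 h in the same way. PFKL was at 264, 247 and 268 CPM in untreated cells of batch 2 and at 87.5, 78.7 and 91.7 CPM with N-Omt, the lowest 3 values among its libraries of that batch. The log2 fold change was -1.58 (SE 0.0573, edgeR adjusted p 2.27e-12), and it was -0.26 to -1.53 in the other mixtures at 48 h. At 24 h PFKL was instead higher with MacOmtOspc, at 440, 419 and 381 CPM against 317, 303 and 307 CPM in untreated cells. SLC16A3 had log2 fold changes of -0.25 to -1.41 in the mixtures at 48 h, and between -0.04 and 0.16, none of them called, at 24 h.

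SLC16A1 moved the other way. It was at 0.775, 0.886 and 0.486 CPM in untreated cells at 48 h in batch 1 and at 8.26, 6.26 and 9.06 CPM with OmtOspc. The groups did not overlap (log2 fold change 3.45, SE 0.213, edgeR adjusted p 3.53e-11), but the untreated values are close to the limit below which genes were not tested. In the other mixtures at 48 h the values were 1.45 to 3.06, all called.

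CA9 differed in direction between the mixtures. With OmtOspc at 24 h CA9 was at 16.6, 10.6 and 10.3 CPM, above the 1.98 to 3.92 CPM of untreated cells (log2 fold change 2.06, SE 0.284, edgeR adjusted p 0.00352). With MacOmtOspc it was at 12.8, 14.2 and 12.4 CPM. With N-OmtOspc it was at 1.90, 0.938 and 2.62 CPM at 24 h, overlapping the untreated range and not called. At 48 h N-OmtOspc had 1.53, 2.65 and 2.28 CPM, below all untreated libraries (log2 fold change -1.44, SE 0.208, edgeR adjusted p 1.35e-06). OmtOspc at 48 h had 6.99, 6.22 and 5.10 CPM and did not differ detectably from untreated cells (log2 fold change 0.03, SE 0.162, edgeR adjusted p 0.88). In batch 2, N-Omt had 3.70, 3.25 and 3.47 CPM against 7.18, 5.02 and 7.25 CPM, a called change of -0.89, while N-Mac, N-Nme and N-Tri had 0.04, -0.23 and -0.09, none of them called.

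PDK1 and BNIP3 were above untreated cells in some mixtures and below them in others. PDK1 was at 52.2, 64.0 and 59.8 CPM with OmtOspc at 24 h and at 12.2, 13.2 and 16.6 CPM with N-OmtOspc, on either side of the 22.5 to 26.4 CPM of untreated cells. The log2 fold changes were 1.28 (SE 0.127) and -0.75 (SE 0.145), with edgeR adjusted p of 0.000955 and 0.00179. With N-MacOmtOspc at 24 h PDK1 was at 16.7, 45.9 and 16.6 CPM, and the high value belonged to the library that stood apart. BNIP3 was at 504, 454 and 444 CPM with OmtOspc at 24 h, against 182, 199 and 176 CPM in untreated cells (log2 fold change 1.33). At 48 h it was at 166, 163 and 167 CPM with N-OmtOspc, against 263, 271 and 270 CPM in untreated cells (log2 fold change -0.67). In batch 2 the mixture without oxymatrine lowered PDK1 by 0.28 and BNIP3 by 0.37, whereas N-Mac, N-Nme and N-Tri raised PDK1 by 0.35, 0.42 and 0.43 and BNIP3 by 0.30, 0.38 and 0.33. These mixtures were not tested against each other here, only against CKI.

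EGLN3 held the largest single change of the set against untreated cells at 24 h. With N-OmtOspc it was at 157, 155 and 111 CPM, against 16.6, 15.7 and 15.2 CPM in untreated cells (log2 fold change 3.19, SE 0.153, edgeR adjusted p 1.61e-06). By 48 h the same mixture had 28.8, 27.3 and 29.1 CPM against 23.9, 26.6 and 23.6 CPM, a change of 0.23. With OmtOspc at 48 h EGLN3 was at 13.8, 12.7 and 11.0 CPM, below all untreated libraries (log2 fold change -0.98, SE 0.0882). Its levels were thus both far above and below those of untreated cells, depending on mixture and time.

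VEGFA was at 225, 228 and 249 CPM in untreated cells at 24 h and at 1160, 1080 and 1590 CPM with N-OmtOspc (log2 fold change 2.48, SE 0.167, edgeR adjusted p 5.78e-06). Its change was 0.92 to 2.31 in the other 3 mixtures at 24 h, 1.01 to 2.18 in the 4 mixtures of batch 1 at 48 h and 0.64 to 1.03 in the 4 of batch 2. NDRG1 ranged from 0.84 to 2.66 over the 12 mixture comparisons, P4HA1 from 0.38 to 1.47, P4HA2 from 0.24 to 1.45 and SLC2A3 from 0.49 to 2.39, all of them called. The call of P4HA1 with N-OmtOspc at 24 h, at 0.47, was lost with library sizes alone (0.17, edgeR adjusted p 0.393). ADM reached 2.22 with N-OmtOspc at 48 h, where it was at 175, 157 and 173 CPM against 34.4, 36.7 and 39.5 CPM.

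Direct comparisons with CKI asked what the mixtures lacked relative to the whole preparation. In batch 2, N-Mac gave 6 genes higher and 26 lower than CKI, N-Nme 6 and 28, N-Omt 7 and 26, and N-Tri 6 and 27, where 72.8%, 72.7%, 80.5% and 77.1% of all genes were called. Of all genes, 36.6%, 37.3%, 40.1% and 38.4% were higher than with CKI in these comparisons and 36.2%, 35.5%, 40.4% and 38.6% were lower. The medians of the 35 were -0.37, -0.54, -0.52 and -0.53. These 4 comparisons share the 3 CKI libraries. CA9 was at 28.3, 28.4 and 28.3 CPM with CKI, at 6.78, 6.39 and 6.77 CPM with N-Mac, at 5.46, 5.16 and 6.09 CPM with N-Nme, at 3.70, 3.25 and 3.47 CPM with N-Omt and at 6.10, 6.37 and 5.91 CPM with N-Tri. Every mixture was thus below CKI without overlap, by -2.08, -2.35, -3.01 and -2.22 on the log2 scale, with edgeR adjusted p of 1.87e-20, 6.27e-15, 9.46e-35 and 6.63e-29.

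ALDOC followed, at -1.27 with N-Mac, -2.32 with N-Nme, -2.01 with N-Omt and -2.33 with N-Tri relative to CKI. SLC16A1 was higher than with CKI, by 2.03, 2.36, 1.37 and 1.98 in the same order. Among the other large differences, SLC16A3 and PKM were lower with N-Mac by 1.28 and 1.16, CA12 and PFKFB4 were lower with N-Nme by 1.70 and 1.57, PFKL and GPI were lower with N-Omt by 1.5 and 1.29, and PFKFB4 and PKM were lower with N-Tri by 1.42 and 1.36. Each was called in its comparison.

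In batch 1 the differences between N-OmtOspc and CKI changed with time. At 24 h, 16 genes were higher and 9 lower with N-OmtOspc than with CKI, where 54% of all genes were called. With library sizes alone the median of all genes shifted by -0.35 and the split became 8 higher and 15 lower, and without the CKI library that stood apart it was 11 higher and 8 lower. The latter fit called 7940 of 14598 genes tested. EGLN3 was higher by 2.29, and CA9, PDK1, PFKM and ALDOC were lower by 2.63, 1.66, 1.65 and 1.39. PFKM, the muscle-type phosphofructokinase, was at 22.6, 25.1 and 21.9 CPM with N-OmtOspc against 76.4, 70.9 and 74.9 CPM with CKI. At 48 h, 4 genes were higher and 26 lower, with 77.8% of all genes called. CA9 was at 1.53, 2.65 and 2.28 CPM against 27.6, 25.0 and 23.1 CPM (log2 fold change -3.52, SE 0.134, edgeR adjusted p 7.88e-16), and PDK1, PFKL, ALDOC and BNIP3 were lower by 1.65, 1.44, 1.43 and 1.32.

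Oxymatrine and oxysophocarpine alone were set against CKI at both times. At 24 h a single gene, P4HA2, was called between OmtOspc and CKI, where 2.32% of all genes were called, with 134, 112 and 125 CPM against 194, 201 and 211 CPM (log2 fold change -0.72, SE 0.12, edgeR adjusted p 0.0355). Each of these groups holds 1 of the libraries that stood apart, and with either left out no gene of the set was called. At an unadjusted p under 0.05 there were 12 of the 35, with differences from -0.72 to 1.47 over the set. A missed threshold does not show that the treatments act alike. At 48 h, 1 gene was higher and 28 lower with OmtOspc than with CKI, with 64.6% of all genes called. SLC16A1 was the higher one, by 2.77 (SE 0.187, edgeR adjusted p 1.26e-10), and CA9, ALDOC, CA12 and EGLN3 were lower by 2.05, 2.02, 1.75 and 1.73.

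Macrozamin was present or absent in a further pair of comparisons at each time. Adding it to OmtOspc at 24 h changed 0 of the 35 genes and 0 of 14211 genes tested by the edgeR quasi-likelihood test, with 2 of the 35 at an unadjusted p under 0.05 and 0 of the 35 by DESeq2. Without the OmtOspc library that stood apart, again 0 of the 35 were called, and 2 of 14388 genes tested. The differences ranged from -0.70 to 0.42 with SE from 0.0931 to 0.392. At 48 h it raised 8 and lowered 4, where 9.72% of all genes were called, and the differences were small. Among those called, the 5 largest were -0.35 for NDRG1 (SE 0.0426, edgeR adjusted p 1.42e-05), 0.31 for CA12, 0.29 for ALDOC, -0.28 for ADM and 0.25 for PKM. With library sizes alone the split was 7 higher and 6 lower.

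Removing macrozamin from N-OmtOspc at 24 h raised 3 genes and lowered 12, where 36.7% of all genes were called. With library sizes alone 3 were higher and 7 lower, and without the N-MacOmtOspc library that stood apart 1 was higher and 15 lower. The latter fit called 5990 of 14780 genes tested. EGLN3 was at 18.5, 23.9 and 18.4 CPM with N-MacOmtOspc against 157, 155 and 111 CPM with N-OmtOspc (log2 fold change -2.80, SE 0.199, edgeR adjusted p 0.000966). PKM, PFKFB3 and PGAM1 were lower by 1.40, 1.09 and 0.99, and PFKM was higher by 1.58. At 48 h the same removal raised 4 and lowered 7, where 39.2% of all genes were called, with 3 higher and 9 lower under library sizes alone. EGLN3, ALDOC, ADM and PFKFB3 were lower by 1.04, 0.68, 0.65 and 0.58, and PFKM was higher by 0.54.

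**Figure D4:**
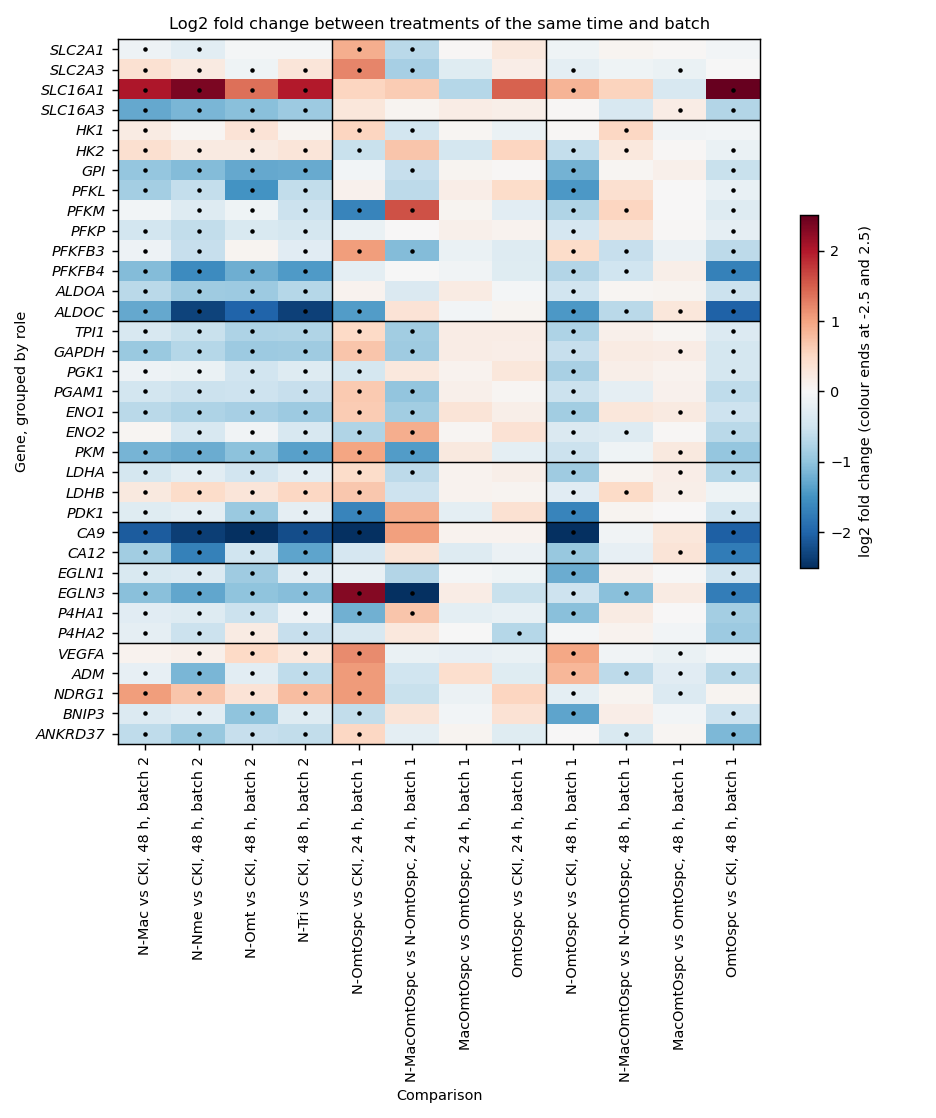
Log2 fold change of the 35 genes (vertical axis, grouped by role) in 12 comparisons between treatments of the same time and batch (horizontal axis); red is higher in the treatment named first, blue is lower, and a black dot marks an adjusted p under 0.05. Mixtures of batch 2 are mostly blue against CKI, with CA9 between -2.08 and -3.01, and the column of MacOmtOspc against OmtOspc at 24 h has no dot.

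Untreated cells also changed with time. Between 24 and 48 h in batch 1, 21 genes were higher and none lower (60% called, against 25.2% of all genes), with a median of 0.26 against 0.00 for all genes. CA9 rose from 3.92, 3.09 and 1.98 CPM to 4.32, 6.99 and 6.67 CPM (log2 fold change 1.00, SE 0.225, edgeR adjusted p 0.00601). ALDOC rose by 0.98, NDRG1 by 0.81 and EGLN3 by 0.63. Between the untreated cells of batch 2 and batch 1 at 48 h, 13 genes were higher and 11 lower, where 58.8% of all genes were called. SLC16A1 was higher by 1.43, VEGFA by 0.88, SLC2A3 by 0.78 and NDRG1 by 0.65. Levels were therefore set against untreated cells of the same time and batch throughout.

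Few differences in the effect of CKI between 24 and 48 h were called. In an interaction test, 1 gene was called, against 1.56% of all genes: the effect on NDRG1 was smaller at 48 h by -0.45 (SE 0.077, edgeR adjusted p 0.0173). At an unadjusted p under 0.05 there were 10 of the 35, with differences from -0.46 to 0.49 over the set. A missed threshold does not show that the effects were equal. Without the CKI library that stood apart, 9 genes were called, 3 with a larger and 6 with a smaller effect at 48 h. The calls over all genes grew as well in that fit, to 1418 of 15012 tested, against 232 of 14834 with the library. Between the batches at 48 h, 6 genes differed, against 13.8% of all genes. The CKI effect was smaller in batch 2 for VEGFA by -0.66 (SE 0.101, edgeR adjusted p 0.000163) and for NDRG1 by -0.47, and larger for ANKRD37 by 0.54, EGLN3 by 0.47 and ALDOC by 0.42. Both VEGFA and NDRG1 started from higher untreated levels in batch 2, VEGFA at 541, 478 and 654 CPM against 291, 285 and 305 CPM, and NDRG1 at 713, 676 and 851 CPM against 457, 468 and 461 CPM. The sixth gene was PKM, whose effect was higher by 0.24.

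The effects of the 4 mixtures of batch 1 were tested for a change with time in the same way. These 6 interaction tests were added after the values were seen. From 24 to 48 h, the effect of OmtOspc became lower for 25 genes and higher for none, where 11.9% of all genes were called, and that of MacOmtOspc became lower for 31 and higher for none, where 21% were called. That of N-OmtOspc became lower for 23 and higher for 2 (41%), and that of N-MacOmtOspc lower for 6 and higher for none (3.54%). Without the libraries that stood apart, OmtOspc gave 29 lower and N-MacOmtOspc 11 lower. The calls over all genes grew as well. They were 2597 of 15022 tested for OmtOspc, against 1757 of 14812 with its library. For N-MacOmtOspc they were 2205 of 15190, against 529 of 14953. The comparisons share the untreated libraries of each time. The effect of OmtOspc on CA9 fell by 2.01 and on ALDOC by 1.98, and that on CA12 by 1.24, on LDHA by 1.04 and on PKM by 0.84.

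Set directly against CKI, the change over time in OmtOspc was lower for 20 genes and higher for none, where 11.7% of all genes were called. Without the CKI library that stood apart it was lower for 17, and without that of OmtOspc lower for 22 and higher for 1. Those fits called 1787 of 15087 and 1933 of 15090 genes tested. CA9 differed by -2.15 (SE 0.284, edgeR adjusted p 0.00071), ALDOC by -2.12, CA12 by -1.62, PFKFB4 by -1.39 and EGLN3 by -1.20. The same test for N-OmtOspc was lower for 19 genes and higher for 1, where 28.8% of all genes were called, and lower for 20 and higher for 1 without the CKI library that stood apart. The latter fit called 4884 of 15626 genes tested. EGLN3 differed by -2.81 (SE 0.179, edgeR adjusted p 9.79e-06), PFKL by -1.56, PKM by -1.51, ENO1 by -1.49 and SLC2A3 by -1.46. PFKM, at 0.91, was the gene with the opposite sign.

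**Figure D5:**
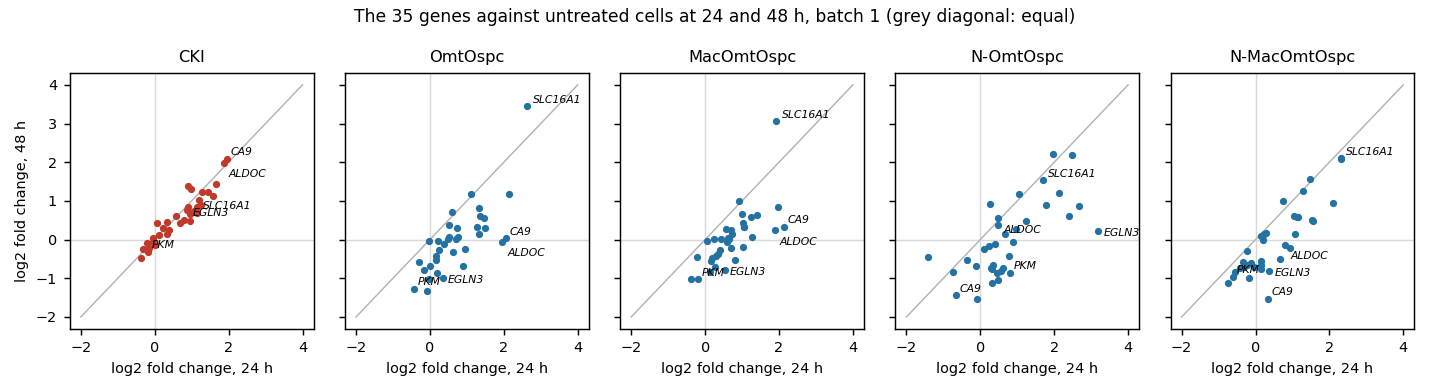
Log2 fold change against untreated cells at 24 h (horizontal axis) and at 48 h (vertical axis) for the 35 genes in 5 treatments of batch 1, 1 point per gene, with a grey line where both are equal. CKI points lie along the line, while most points of the mixtures lie below it, and CA9 and ALDOC drop from about the CKI value to near 0 with OmtOspc.

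Lists of related genes were followed in the 3 comparisons of CKI. Of 32 further HIF targets, 22, 25 and 23 were higher and 2, 2 and 5 lower, with medians of 0.54, 0.57 and 0.50. These are 68.8%, 78.1% and 71.9% higher, where 19.3%, 31.6% and 34.1% of all genes were higher. Of all genes, 19.3%, 31% and 34.4% were lower, and the same shares of all genes apply to each list below. ANGPTL4, a secreted regulator of lipoprotein lipase, rose by 5.05, 4.15 and 3.95, the glycoprotein hormone gene STC1 by 1.57, 1.37 and 1.73, and MIR210HG, the host transcript of a hypoxia-induced microRNA, by 1.09, 1.67 and 1.66. With N-OmtOspc at 48 h, 12 of the 32 were higher (37.5%, against 40.1% of all genes) and 16 lower, where 40.4% of all genes were lower. Of 12 tested genes of the HIF pathway itself, 2, 5 and 5 were higher (16.7%, 41.7% and 41.7%, against the 19.3%, 31.6% and 34.1% of all genes) and 2, 4 and 4 lower. HIF1AN, an asparagine hydroxylase that inhibits HIF1A, rose by 0.43, 0.26 and 0.46 and is named after its values were seen. The transcript of HIF1A, whose protein is controlled mainly after translation, fell by 0.92, 0.95 and 0.72, CITED2, a competitor of HIF1A for its coactivator, fell by 0.72, 0.58 and 0.47, and ARNT2 had -0.65 (not called), -1.04 and -1.38. Of 12 tested genes among 18 further glycolytic genes, 5, 6 and 4 were higher (41.7%, 50.0% and 33.3%) and 2 were lower each time. PFKFB2 fell by 0.88, 0.85 and 0.72, HKDC1 had 1.49, 0.81 and 0.06 (not called), and BPGM rose by 0.77, 0.50 and 0.52. Of 12 genes that carry pyruvate into mitochondria, oxidise it there or switch that oxidation on or off, 4, 5 and 7 were higher and 3, 4 and 4 lower (33.3%, 41.7% and 58.3% higher). The higher ones include inhibitors of the step, PDK4 in all 3 comparisons and PDK3 at 48 h. The pyruvate carrier subunit MPC1 rose by 0.51, 0.45 and 0.32 and the phosphatase PDP2 by 0.55, 0.28 and 0.42, while DLAT, a core subunit of pyruvate dehydrogenase, fell by 0.34, 0.49 and 0.41.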

How the data were processed

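RNA-seq was run by the study on mRNA of MDA-MB-231 cells selected with oligo(dT) beads and sequenced in read pairs. The authors deposited 1 table of raw read counts per gene, with gene symbols, for all 54 libraries; the submitters' processing notes name FastQC 0.11.4, Trim Galore 0.3.7, STAR 2.5.3a, Subread 1.5.2 with featureCounts, edgeR 3.22.3 and the build hg19. How strand and multi-mapping reads were counted is not given in the sources used here, so genes with near-identical pseudogenes (GENCODE release 29) are marked as uncertain.

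The counts were analysed in R 4.3.3 with edgeR 4.0.16 (limma 3.58.1). Each comparison used only the groups compared, filterByExpr, TMM scaling and the quasi-likelihood test, with Benjamini-Hochberg adjustment over all genes tested and a threshold of 0.05. Interactions were tested as differences of 2 treated-minus-untreated effects. CPM values were scaled by TMM over all 54 libraries and are not corrected for gene length, so levels are not compared between genes. Each SE was derived from the log2 fold change and the F statistic of the quasi-likelihood test. It therefore rests on dispersions shared across genes, with 3 replicates per group, and is not the SE of a group mean. The procedure was tested on simulated data with 200 genes changed by known amounts.

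The members and the gene lists were chosen with earlier results of these data known, and 6 interaction tests were added after values were seen. Members were named by role where called in at least 2 of the 3 CKI comparisons; per-library values were given for the largest mean change in each role among genes of at least 10 CPM and for up to 6 members called in opposite directions; up to 5 called members were named per direct comparison or interaction, and 3 genes per further list. Other members and library values were added after they were seen, to account for all 35 and to illustrate groups. Alternatives were RLE size factors, library sizes alone, no expression filter, DESeq2 1.42.0, a fit over all libraries, the replicate number as a block, and leaving out each replicate. Same-numbered replicates share no stated culture, and no comparison had every pair correlated above 0.1. No libraries were alike within sampling noise (lowest chi-square per degree of freedom 1.97). Totals of 17673537 to 26138924 counts set the precision, and it covers counting and replicate error only.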

Additional observations from a re-analysis of the deposited data

Results flagged for a closer look

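These results were set out because the effect of a treatment differed between times or batches by an interaction test (edgeR quasi-likelihood, Benjamini-Hochberg adjusted over all genes). For CKI, 1 member differed between 24 and 48 h, NDRG1 at -0.45 on the log2 scale, where 1.56% of all genes were called. Between the 48 h batches 6 members differed, where 13.8% of all genes were called. They include VEGFA at -0.66, ANKRD37 at 0.54, NDRG1 at -0.47, EGLN3 at 0.47 and ALDOC at 0.42. Batch here is the label given to the libraries, and batch, culture and sequencing cannot be told apart.

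The other flagged results come from tests added after the values were seen. Between 24 and 48 h in batch 1, the effect of N-OmtOspc differed for 25 members, that of N-MacOmtOspc for 6, that of OmtOspc for 25 and that of MacOmtOspc for 31. Of all genes, 41%, 3.54%, 11.9% and 21% were called in these tests, in the same order. The change over time differed from that of CKI for 20 members in OmtOspc and for 20 members in N-OmtOspc, where 11.7% and 28.8% of all genes were called. Untreated levels also moved between these times, and their part in these differences was not tested.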

How the results depend on the processing

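Of the 20 genes higher with CKI in all 3 comparisons, 19 were called under every alternative in each; GPI at 24 h had an edgeR adjusted p of 0.0748 with the replicate block and 0.0511 without untreated 24 h replicate 2. At 24 h LDHB, lower in all 3, had 0.0941 with the replicate block, 0.0785 in the fit of all 18 libraries and 0.0727 to 0.105 without untreated replicate 1 or 2 or CKI replicate 2. Over 11161 recomputed values of single genes (all 35 for CKI, elsewhere those called), 10505 kept direction and call, 622 lost the call, 20 gained one and 14 changed sign. None of the 14 was called in the main test except GPI with N-OmtOspc at 24 h (-0.0141 with library sizes alone). With library sizes alone SLC2A1 (0.0158) and TPI1 (0.0085) changed sign for CKI at 24 h, TPI1 (0.00169) at 48 h in batch 1, and PFKL (0.0184) and LDHA (0.0724) in batch 2. Leaving out 1 library, values for CKI at 24 h ran from -0.0628 to 0.00892 for SLC2A1, -0.118 to 0.0315 for TPI1 and -0.0676 to 0.126 for CA12 (the sign changed without CKI replicate 1), and from -0.0298 (without CKI replicate 3) to 0.0711 for LDHA (-0.0171 without untreated replicate 3). In batch 2 they ran from -0.0267 (without untreated replicate 2) to 0.317 for SLC16A1, and from -0.0211 to 0.0176 (without CKI replicate 1) for LDHA.

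The counts of members called in other comparisons moved as follows; the cause was not tested. OmtOspc against CKI at 24 h (1 member) gave 4 with DESeq2, 2 in the fit of all 18 libraries and 0 with the replicate block or without both libraries that stood apart (leave-one-out 0 to 1). N-MacOmtOspc against N-OmtOspc at 48 h (11) gave 19, and MacOmtOspc against OmtOspc at 48 h (12) gave 1, in the fit of all 18 libraries. Untreated cells at 48 against 24 h (21) gave 9, the CKI effect between times (1) 0 and between batches (6) 1, and the N-MacOmtOspc effect between times (6) 19, in the fit of all 54 libraries. The CKI effect between times gave 2 with library sizes alone, 5 with DESeq2 and 0 with the replicate block. The N-MacOmtOspc effect between times gave 11 with library sizes alone, 11 with DESeq2 and 10 without the filter. The contrast of OmtOspc with CKI over time (20) gave 9 with the replicate block; the block moved no other count by over 1.5 times.

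Leaving out 1 library gave 14 to 31 for N-MacOmtOspc at 24 h (22; 31 without N-MacOmtOspc replicate 2), 15 to 25 for N-OmtOspc against CKI at 24 h (25; 15 without N-OmtOspc replicate 1) and 6 to 18 for N-MacOmtOspc against N-OmtOspc at 24 h (15; 6 without N-OmtOspc replicate 1 and 7 without N-MacOmtOspc replicate 3). It gave 0 to 5 for MacOmtOspc against OmtOspc at 24 h (5 without OmtOspc replicate 1), 7 to 16 for N-MacOmtOspc against N-OmtOspc at 48 h (7 without N-OmtOspc replicate 2 or 3), 7 to 14 for MacOmtOspc against OmtOspc at 48 h (7 without OmtOspc replicate 3) and 13 to 23 for untreated cells over time (13 without untreated 24 h replicate 2). It gave 0 to 9 for the CKI effect between times (9 without CKI 24 h replicate 1), 5 to 10 between batches (10 without untreated 48 h replicate 1 of batch 1), 1 to 11 for the N-MacOmtOspc effect between times and 12 to 23 for OmtOspc against CKI over time (12 without OmtOspc 48 h replicate 2). With library sizes alone, OmtOspc at 48 h gave 16 higher and 13 lower and the N-OmtOspc effect between times 18 lower and 3 higher, with medians of all genes shifted by 0.11 and 0.34.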

Other observations

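PDK4, the pyruvate dehydrogenase kinase best known from fasting, was chosen for mention after its values were seen, since it lies under 10 CPM on average. With CKI it rose by 3.31, 2.15 and 2.72 on the log2 scale at 24 h, at 48 h in batch 1 and at 48 h in batch 2, above the changes of 0.90, 0.83 and 0.67 of PDK1.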
